A study of Homo sapiens with 12 samples.

Results

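Ferroptosis is a form of cell death driven by iron-dependent peroxidation of the polyunsaturated lipids in membranes. Cells hold it back by reducing lipid peroxides directly and by keeping small radical-trapping molecules in a reduced state, and they become more prone to it when polyunsaturated fatty acids are built into membrane phospholipids. The 7 genes described here are defined by symbol and cover both sides. GPX4, SLC7A11, AIFM2, DHODH and GCH1 are on the defence side. ACSL4 and LPCAT3 load polyunsaturated fatty acids into phospholipids. All 7 were found among the 56337 distinct gene entries of the table, 1 entry each, and all 7 passed the expression minimum of a mean of 1 FPKM over the 12 libraries, which left 13682 genes for testing.

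The cells were wild type HEK293T, a line derived from human embryonic kidney that carries the SV40 large T antigen, kept in RPMI with serum. Control cells received neither agent. The BafA1 group received 10 nM bafilomycin A1, which blocks the proton pump that acidifies lysosomes, for 24 h. The FAC group was pre-incubated for 24 h with ferric ammonium citrate, an iron salt, at 0.1 mg/ml, and had no BafA1 in the 24 h that followed. The FAC+BafA1 group (Combo in the labels) had that iron salt for 24 h and then 10 nM BafA1 for 24 h. No group received ammonium or citrate without iron, so iron and the rest of the salt cannot be told apart. Stranded mRNA libraries were sequenced, 3 per group, and nothing states that these were separate cultures, so each p-value measures the spread between these libraries. FPKM are fragments scaled to transcript length and to the fragments mapped in the library, so levels can be set side by side between genes.

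Among markers of the labelled line, 5 of 6 HEK293 lineage genes (NEFL, NEFM, INA, CDH2 and VIM) had a mean of at least 1 FPKM, and PAX2 did not. The summed level of the 6 was 465 to 472 FPKM in control, 858 to 868 in BafA1, 448 to 457 in FAC and 686 to 692 in FAC+BafA1. Most of each sum was VIM, with means of 355, 697, 335 and 563 FPKM in that order. From control to BafA1, NEFM rose from 49.7 to 102.5 FPKM and NEFL from 31.0 to 35.4. CDH2 went from 21.8 to 16.9 FPKM, PAX2 from 1.01 to 0.363 and INA from 9.26 to 9.37. A mean of at least 1 FPKM was reached by 0 of 6 keratinocyte or HeLa markers, 2 of 7 blood cell markers and 1 of 6 fibroblast markers. Summed over each list, keratinocyte or HeLa markers were at 0.13 to 0.27 FPKM in control, 0.77 to 1.33 in BafA1, 0.23 to 0.33 in FAC and 0.36 to 0.66 in FAC+BafA1. In the same order, blood cell markers were at 2.84 to 4.0, 2.15 to 2.76, 3.54 to 4.40 and 3.12 to 3.67 FPKM, and fibroblast markers at 5.13 to 7.44, 3.31 to 3.96, 5.77 to 7.22 and 6.06 to 8.58 FPKM. Of these markers, KRT6A, KRT16, HBB and COL1A2 were at 0 in every library. The part of these marker shifts in the results below was not tested. In bulk RNA, fewer cells of a kind and less RNA per cell cannot be told apart. Depth, estimated from the lowest values, was 34.4 to 37.9 M fragments per library. Between libraries with and without FAC, 627 gene entries switched: 0 throughout the 6 libraries of one kind, and never under 1 FPKM in the 6 of the other kind. Comparisons across FAC therefore also compare 2 ways of filling entries. None of the 7 genes was among the 627 entries. The low values used for depth also lay nearer to whole fragments in all libraries with FAC than in those without. A difference in quantification across FAC need therefore not be limited to the 627 entries. The part of either in the differences below was not tested.

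The start regions of 5 of the 7 genes were matched in RefSeq (GRCh38.p14). Stretches are printed for the 4 of these genes called lower after BafA1. The part of any of the motifs below in those changes was not tested. The 100 bases before each start site were searched on both strands for CCAAT (a common promoter box, found in 18.1% of 35116 RefSeq promoters over the same length), GGGCGG (a GC box, 31.3%) and TGACNNNGC (the antioxidant response element, 5.16%). They were also searched for TGATGNAA (the element bound by ATF4 with a partner, 1.34%) and TCACGTGA (the lysosomal gene element bound by TFEB, 0.578%). Capitals mark matches on either strand. The stretches run 5′ to 3′ on the strand of the gene. They cover chr19:1103894-1103981 for GPX4, chr12:7018478-7018576 (minus strand) for LPCAT3, chr16:72008714-72008743 for DHODH and chr10:70132826-70132855 (minus strand) for AIFM2. The DHODH and AIFM2 stretches lie before the RefSeq start used but inside the annotated span of the gene.
GPX4: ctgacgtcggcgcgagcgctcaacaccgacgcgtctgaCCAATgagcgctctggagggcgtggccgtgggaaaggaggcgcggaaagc
LPCAT3: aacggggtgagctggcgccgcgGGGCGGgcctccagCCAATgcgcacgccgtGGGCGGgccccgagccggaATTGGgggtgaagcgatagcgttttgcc
DHODH: catctcctCCAATggaagggagacaggggc
AIFM2: gcacgagtGCTGAGTCAcgccCCGCCCggg
GPX4, LPCAT3 and DHODH each held a CCAAT box. AIFM2 alone of the 5 matched the antioxidant response element, 22 to 14 bases before its start, beside a GC box. DHODH had a further GC box 55 to 50 bases before its start, outside the stretch shown. ACSL4 matched only the GC box, in a pair that overlaps by 2 bases. TGATGNAA and TCACGTGA were not found in these 5 windows. SLC7A11 and GCH1 were not matched.

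In untreated cells the 7 transcripts spanned a wide range of levels. GPX4, the selenoprotein that reduces phospholipid hydroperoxides with glutathione, was highest at 306 ± 20.3 FPKM (SD, n = 3). ACSL4, which activates arachidonic and adrenic acid, followed at 27.07 ± 1.37 and LPCAT3, which inserts such acyl chains into lysophospholipids, at 22.4 ± 1.86 FPKM. DHODH, the mitochondrial enzyme of pyrimidine synthesis that passes electrons to ubiquinone, was at 10.9 ± 0.964 FPKM. GCH1, which starts tetrahydrobiopterin synthesis, was at 10.1 ± 0.552, and the control libraries of these 2 genes overlapped. SLC7A11, the cystine-importing subunit of system xc-, was at 7.09 ± 0.242 FPKM. AIFM2, also called FSP1, which regenerates reduced coenzyme Q at membranes, was lowest at 1.61 ± 0.147 FPKM. All other neighbours in this order were apart in every control library.

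**Figure D1:**
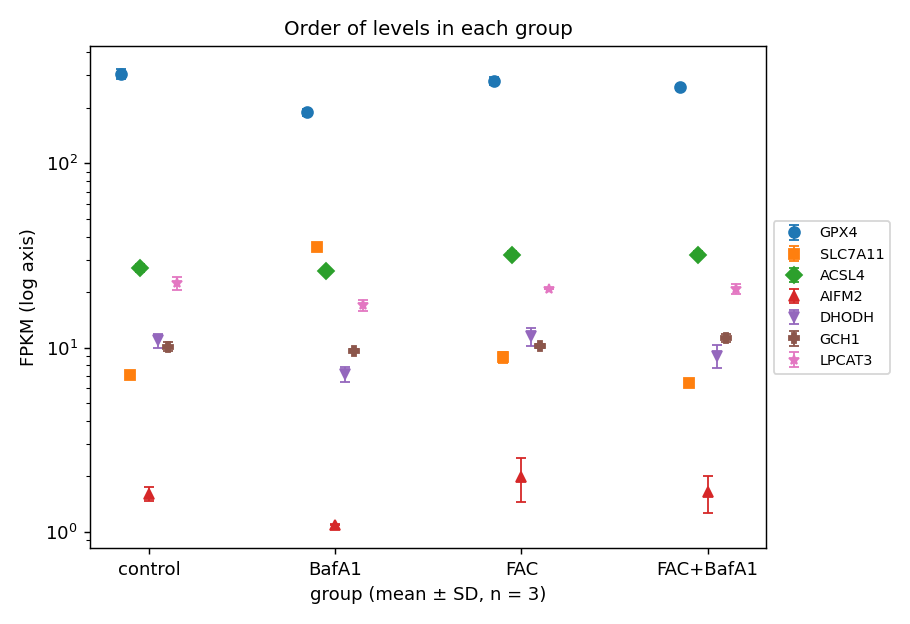
Mean level of each gene in each group, in FPKM on a log axis, with SD over 3 libraries. GPX4 is highest and AIFM2 lowest in every group, and SLC7A11 moves from sixth place in control to the second place in BafA1.

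The comparison of BafA1 with control asked how these genes respond when lysosomes cannot acidify and no iron is added. Of the 7, 1 was higher and 4 were lower by limma at an adjusted p under 0.05, against 29.5% of all tested genes higher and 37.6% lower. The single increase was the cystine importer, and the peroxidase GPX4 was among the decreases. The median log2 change of the 7 was -0.32, beside -0.04 over all tested genes.

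SLC7A11 (ENSG00000151012, chr4:138164097-138242349, minus strand) was at 7.0, 6.90 and 7.36 FPKM in the control libraries. In the BafA1 libraries it was at 34.32, 35.68 and 35.16 FPKM. Every BafA1 library lay above every control library, and the mean was 4.95-fold higher (log2 change of FPKM + 1 of 2.16 ± 0.05, SE; adjusted p = 1.46e-11). With that rise SLC7A11 passed GCH1, DHODH, LPCAT3 and ACSL4 and became the second most abundant of the 7, with no overlap with either neighbour in the order. A non-coding gene on the opposite strand, SLC7A11-AS1, overlaps it and was at 0.01 to 0.56 FPKM in all 12 libraries.

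GPX4 (ENSG00000167468, chr19:1103982-1106791) was at 302.78, 327.80 and 287.57 FPKM in control and at 180.76, 189.19 and 197.22 FPKM in BafA1. The groups did not overlap, and the BafA1 mean of 189 ± 8.23 FPKM was 0.618 times the control mean (log2 -0.69 ± 0.05, adjusted p = 1.86e-07). No other annotated gene overlaps GPX4. It remained the highest of the 7 after BafA1, and by FPKM it stood 5.4 times above SLC7A11, where it had stood 43.2 times above it in control.

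The enzymes that work beside GPX4 through ubiquinone also fell. DHODH (ENSG00000102967, chr16:72008588-72027664) was at 11.60, 9.84 and 11.40 FPKM in control and at 7.82, 7.12 and 6.48 FPKM in BafA1, without overlap (log2 -0.55 ± 0.10, adjusted p = 0.00047). AIFM2 (ENSG00000042286, chr10:70098223-70132934, minus strand) was at 1.52, 1.78 and 1.53 FPKM in control. It was at 1.08, 1.10 and 1.10 FPKM in BafA1, below every control library, with a mean 0.679 times control. In log2 of FPKM + 1, which shrinks changes at such low levels, the change was -0.32 ± 0.13 (limma adjusted p = 0.0484). That call was lost under 12 of 19 alternatives. These included each of the 6 omissions of a control or BafA1 library (log2 -0.34 to -0.27, adjusted p up to 0.137) and those of FAC replicate 1 and FAC+BafA1 replicates 1 and 3 (log2 -0.32, adjusted p up to 0.0586). Median-of-ratios scaling and quantile normalization ended it too, with an adjusted p of 0.0729 and 0.25.

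LPCAT3 (ENSG00000111684, chr12:6976185-7018477, minus strand) was the one gene of the loading side that fell. Its control libraries were at 23.70, 20.24 and 23.15 FPKM and its BafA1 libraries at 15.70, 17.48 and 17.82 FPKM, without overlap (log2 -0.38 ± 0.07, adjusted p = 0.000266). AIFM2 and LPCAT3 overlap expressed genes on the opposite strand, MACROH2A2, a histone variant, and EMG1, a ribosome assembly factor. The library kit keeps the strand, but whether counting used it is not given in the sources used here. MACROH2A2 fell from 48.4 ± 1.04 to 38.1 ± 0.508 FPKM after BafA1 (log2 -0.34, adjusted p = 1.55e-06). EMG1 fell from 45.1 ± 2.06 to 35.1 ± 0.556 FPKM (log2 -0.35, adjusted p = 1.15e-05), and the part of either in the values of its partner was not tested.

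ACSL4 and GCH1 did not pass the test. ACSL4 (ENSG00000068366, chrX:109624244-109733403, minus strand) was at 25.59, 27.31 and 28.30 FPKM in control and at 25.93, 26.33 and 25.87 FPKM in BafA1, with the groups overlapping. The 95% interval of its log2 change was -0.16 to 0.05. GCH1 (ENSG00000131979, chr14:54842008-54902826, minus strand) was at 10.76, 9.83 and 9.78 FPKM in control and at 9.77, 9.40 and 9.73 FPKM in BafA1. Its BafA1 libraries lay just below the control libraries, with an interval of -0.18 to 0.05 (adjusted p = 0.293).

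**Figure D2:**
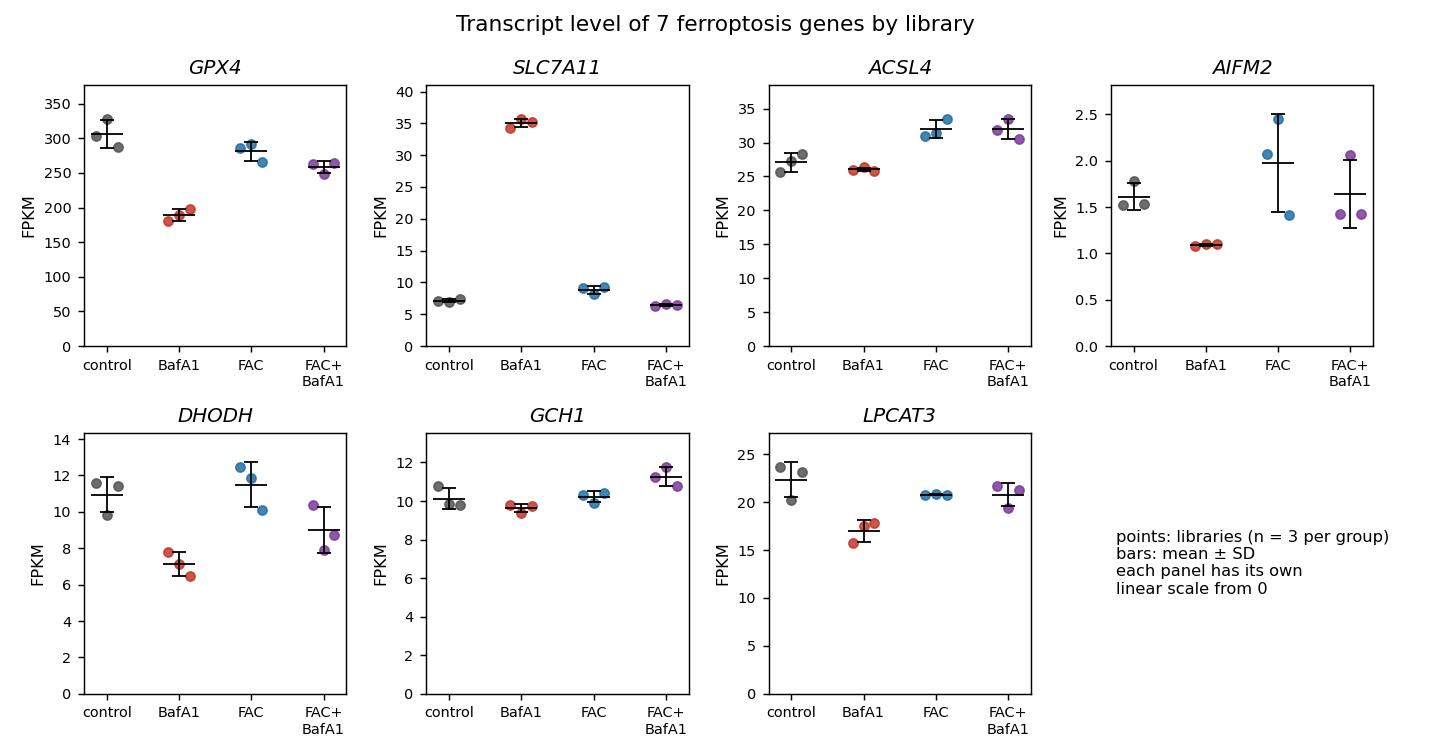
FPKM of each gene in every library, with mean and SD, on a linear axis from 0 in each panel. SLC7A11 lies at 34.32 to 35.68 FPKM in BafA1 and at 6.22 to 9.30 in all other libraries, while GPX4 lies at 180.76 to 197.22 FPKM in BafA1 and at 248.87 to 327.80 in the others.

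FAC+BafA1 was set against FAC to ask what the same block did in cells already given the iron salt. Of the 7 genes, 0 were higher and 2 were lower by limma, against 9.76% of all tested genes higher and 9.49% lower. At an unadjusted p under 0.05, 1 was higher and 3 were lower, but the share of all tested genes at that threshold is not given here. SLC7A11 now moved down. It was at 9.06, 8.13 and 9.30 FPKM in FAC and at 6.22, 6.60 and 6.42 FPKM in FAC+BafA1, without overlap (log2 -0.41 ± 0.05, adjusted p = 0.00029). DHODH was at 12.48, 11.87 and 10.10 FPKM in FAC and at 10.37, 7.91 and 8.75 FPKM in FAC+BafA1. Its groups overlapped (log2 -0.32 ± 0.10, adjusted p = 0.0493), and 12 of 20 alternatives took it above the threshold. Without FAC replicate 1 or 2 or FAC+BafA1 replicate 2 or 3 its log2 change was -0.26, -0.30, -0.24 or -0.31 (adjusted p = 0.157, 0.133, 0.173 and 0.121). Omitting control replicate 1 or 3 or BafA1 replicate 2 or 3 left it at -0.32 (adjusted p up to 0.0617). In each of these cases the count of called members was 1.

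GPX4 was at 286.38, 291.31 and 265.02 FPKM in FAC and at 262.97, 248.87 and 264.72 FPKM in FAC+BafA1. The FAC+BafA1 libraries lay just below the FAC libraries, but the change did not pass the test (log2 -0.12, 95% interval -0.23 to -0.004, adjusted p = 0.139). LPCAT3 was at 20.77, 20.82 and 20.79 FPKM in FAC and at 21.72, 19.39 and 21.24 FPKM in FAC+BafA1, on both sides of the FAC values (interval -0.14 to 0.14). ACSL4 was at 30.95, 31.42 and 33.47 FPKM in FAC and at 31.82, 33.46 and 30.51 FPKM in FAC+BafA1, fully overlapping (interval -0.10 to 0.10). GCH1 was at 10.31, 9.90 and 10.44 FPKM in FAC and at 11.27, 11.78 and 10.77 FPKM in FAC+BafA1, above it in every library yet short of the threshold (adjusted p = 0.1). AIFM2 spread widely in both groups, at 2.07, 2.45 and 1.41 FPKM in FAC and at 1.43, 2.06 and 1.42 FPKM in FAC+BafA1. No AIFM2 change could be called there (interval -0.45 to 0.12).

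The difference between these BafA1 responses, with FAC minus without, was tested as an interaction. By limma, 3 of the 7 genes had a positive and 1 a negative interaction, against 29.5% and 20.6% of all tested genes. SLC7A11 had the negative one, at -2.56 ± 0.07 (adjusted p = 5.64e-10), as its change went from 2.16 without FAC to -0.41 with FAC. GPX4 had an interaction of 0.57 ± 0.07 (adjusted p = 5.15e-05), from -0.69 to -0.12. LPCAT3 had one of 0.37 ± 0.09 (adjusted p = 0.00525), from -0.38 to -0.002. For GCH1 the interaction was 0.19 ± 0.07 (adjusted p = 0.0429), from -0.06 to 0.13. That call ended under median-of-ratios scaling (0.13, adjusted p = 0.167), quantile normalization (adjusted p = 0.0503), a replicate block (adjusted p = 0.0574) and 8 of 12 single-library omissions. These were control replicate 1, each BafA1 replicate, FAC replicates 1 and 2 and FAC+BafA1 replicates 1 and 2 (0.15 to 0.20, adjusted p from 0.0555 to 0.103). The DHODH change with FAC was not shown to differ from that without it (interaction 0.23, interval -0.09 to 0.55, adjusted p = 0.209). The same holds for AIFM2 (0.15, interval -0.25 to 0.55) and ACSL4 (0.05, interval -0.09 to 0.20).

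**Figure D3:**
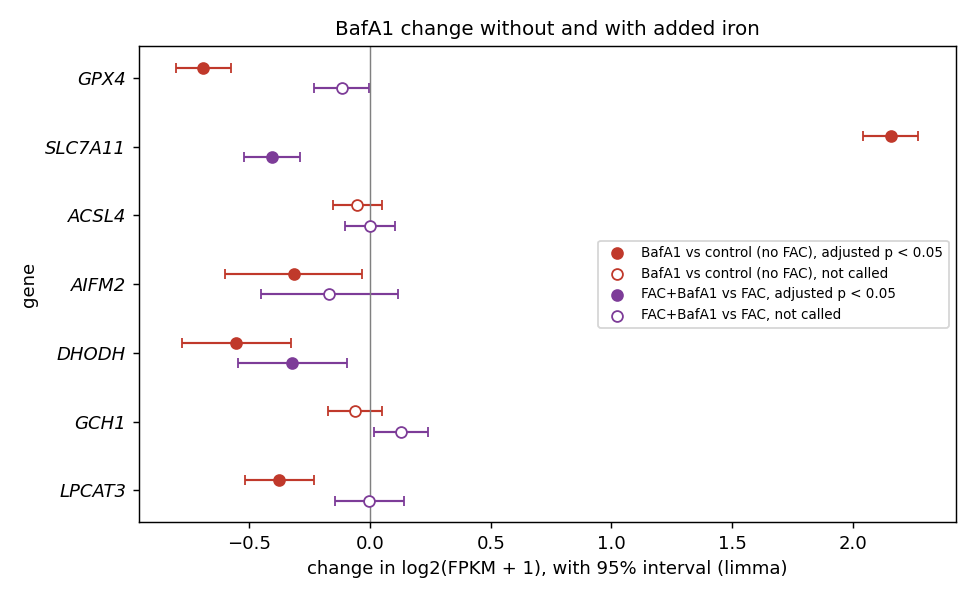
Change in log2(FPKM + 1) after BafA1 without FAC and with FAC, with 95% limma intervals; filled points passed an adjusted p of 0.05. SLC7A11 lies at 2.16 without FAC and -0.41 with FAC, and GPX4 at -0.69 and -0.12.

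The iron salt alone, FAC with control, went with 2 of the 7 genes higher and 0 lower by limma, against 4.72% of all tested genes higher and 4.84% lower. At an unadjusted p under 0.05, 2 were higher and 1 was lower, again without the share of all tested genes at that threshold. ACSL4 rose from 27.07 ± 1.37 to 31.9 ± 1.34 FPKM, 1.18-fold, with every FAC library above every control library (log2 0.23 ± 0.05, adjusted p = 0.00444). SLC7A11 rose from 7.09 ± 0.242 to 8.83 ± 0.618 FPKM, 1.25-fold, also without overlap (log2 0.28 ± 0.05, adjusted p = 0.00241). GPX4 was at 281 ± 14.0 FPKM in FAC and overlapped control (interval -0.24 to -0.01, adjusted p = 0.249). The 4 others overlapped control as well, with adjusted p from 0.569 to 0.953. In this comparison the libraries differ in FAC and in how entries were filled, which cannot be told apart.

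FAC+BafA1 with BafA1 asked how cells given the iron salt before the block differed from cells with the block alone. It shares the BafA1 libraries with the first comparison, and its direction is therefore tied to it. Of the 7 genes, 6 were higher and 1 lower by limma, against 38.8% of all tested genes higher and 29.1% lower. With median-of-ratios scaling 4 were higher and 1 lower, and of all 13682 tested genes 4644 were higher and 4634 lower. The SLC7A11 level was 0.183 times that in BafA1 alone (log2 -2.28 ± 0.05, adjusted p = 2.18e-12). GPX4 was 1.37-fold higher (log2 0.45 ± 0.05, adjusted p = 7.71e-06), ACSL4 1.23-fold, LPCAT3 1.22-fold and GCH1 1.17-fold higher, each without overlap (adjusted p = 0.000176, 0.00247 and 0.00341 for the last 3). The DHODH change of 0.29 was lost without BafA1 replicate 2 or 3 or FAC+BafA1 replicate 1 (0.29, 0.23 and 0.20; adjusted p = 0.0517, 0.0931 and 0.111). Median-of-ratios scaling ended it too, with an adjusted p of 0.0563. The AIFM2 change of 0.32 (adjusted p = 0.0438) was lost under 11 of 19 alternatives. Without FAC+BafA1 replicate 2 it was 0.21 (adjusted p = 0.183), and without any one control or BafA1 library or FAC replicate 1 it was 0.32 to 0.33 (adjusted p from 0.0505 to 0.0864).

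Against control, FAC+BafA1 cells had 1 of the 7 genes higher and 1 lower by limma, against 16.2% of all tested genes higher and 16.6% lower. ACSL4 was higher (31.9 ± 1.48 FPKM, log2 0.23 ± 0.05, adjusted p = 0.00235), at nearly the level of FAC alone. GPX4 was lower, at 259 ± 8.69 FPKM, 0.846 times control (log2 -0.24 ± 0.05, adjusted p = 0.00357). SLC7A11, at 6.41 ± 0.190 FPKM, lay below every control library but did not pass (log2 -0.13, interval -0.24 to -0.01, adjusted p = 0.0904). It passed under quantile normalization (-0.16, adjusted p = 0.0394). GCH1 (0.14, adjusted p = 0.0515) and DHODH (-0.26, adjusted p = 0.0761) missed the threshold. DHODH passed with a replicate block (adjusted p = 0.033), with quantile normalization (adjusted p = 0.0397) and without FAC+BafA1 replicate 1 (-0.35, adjusted p = 0.0249). GCH1 passed without control replicate 1 (0.18, adjusted p = 0.0247) or FAC+BafA1 replicate 3 (0.17, adjusted p = 0.0443). In this group GCH1 was above DHODH in every library, at 11.3 ± 0.505 and 9.01 ± 1.25 FPKM.

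The other genes of these pathways were taken from 12 lists of 95 genes, of which 86 passed the expression minimum. After BafA1 without FAC, 32 (37.2%) were higher and 42 (48.8%) lower by limma, beside 29.5% and 37.6% of all tested genes. With FAC, 15 (17.4%) were higher and 18 (20.9%) lower, beside 9.76% and 9.49%. The list medians are given beside the median over all tested genes, which was -0.04 without FAC and 0.00 with FAC.

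The glutathione supply list lies around SLC7A11, since imported cystine becomes the cysteine of glutathione. After BafA1, 6 of its 9 genes were higher and 3 lower (median 0.23). SLC3A2, the heavy chain that carries SLC7A11 to the cell surface, rose 3.56-fold from 100.5 ± 2.94 to 358 ± 7.56 FPKM. CTH, which makes cysteine from cystathionine, rose 8.50-fold to 135 ± 2.64 FPKM. CHAC1, which degrades glutathione, rose 7.53-fold from 2.86 ± 0.403 to 21.5 ± 2.74 FPKM. So the importer, an inner source of cysteine and a glutathione-degrading enzyme were higher together. The lower members were GCLM, the modifier subunit of the enzyme that starts glutathione synthesis (log2 -1.01), GSR, which reduces oxidised glutathione (-0.39), and GSS, glutathione synthetase (-0.16). With FAC, 2 of 9 were higher and 3 lower (median -0.005, and 0.01 under quantile normalization). SLC3A2 still rose there, from 107 ± 2.76 to 151 ± 4.28 FPKM (log2 0.48 ± 0.03, adjusted p = 1.37e-06), while its partner SLC7A11 fell. GCLM fell from 27.1 ± 0.387 to 16.06 ± 0.864 FPKM (log2 -0.72 ± 0.06, adjusted p = 1.25e-05).

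GPX4 needs selenocysteine. Of 8 genes of selenoprotein synthesis, 4 were higher and 1 lower after BafA1 (median 0.14; 6 and 1 with median-of-ratios scaling or quantile normalization). PSTK and SEPSECS, which turn serine on its tRNA into selenocysteine, rose 1.72-fold and 1.59-fold. TRIT1, which modifies tRNA bases, rose 1.41-fold. LRP8, a receptor that takes up selenoprotein P, fell by 0.37 log2 units (adjusted p = 0.00298). PSTK, SEPSECS and TRIT1, named for the largest changes of the list, stood higher in BafA1 than in control, where GPX4 stood lower. This did not extend to FAC+BafA1, in which GPX4 was also called lower than control (log2 -0.24, adjusted p = 0.00357). Against control, PSTK, SEPSECS and TRIT1 changed there by 0.06, -0.05 and -0.06 log2 units (limma adjusted p = 0.698, 0.676 and 0.588). With FAC, 0 of 8 were called in either direction by limma (at an unadjusted p under 0.05, 0 were higher and 1 lower). The share of all tested genes at that unadjusted threshold is not given here.

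Of 7 relatives of GPX4 in peroxide reduction, 5 passed the expression minimum, and 4 of these were lower after BafA1 (median -1.07). GPX1, the cytosolic glutathione peroxidase, fell from 184 ± 9.06 to 67.5 ± 3.95 FPKM, GPX3, the secreted one, from 18.5 ± 0.572 to 6.01 ± 0.336, and MGST1, a membrane-bound glutathione transferase, from 53.8 ± 1.79 to 25.1 ± 0.902 FPKM. The GPX4 level was 0.618 times control and those of GPX1 and GPX3 0.367 and 0.325 times. With FAC, 4 of 5 were lower (3 with a replicate block), of which 3 were lower in both comparisons. These were GPX1, GPX3 and PRDX6, a peroxiredoxin that can reduce phospholipid peroxides, which fell by 0.42, 0.38 and 0.14 log2 units with FAC. MGST1 was not called there (log2 -0.06, adjusted p = 0.304), and GPX8, not called without FAC (adjusted p = 0.37), was lower (log2 -0.14, adjusted p = 0.0318). FAC alone also went with lower GPX1, at 123 ± 8.16 FPKM (log2 -0.57 ± 0.06, adjusted p = 4.91e-06).

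The tetrahydrobiopterin list surrounds GCH1. GCH1 itself was not called after BafA1, but 5 of the 6 other genes of the pathway were lower and 0 higher (median -0.80). SPR, which carries out the last step of synthesis, fell from 14.1 ± 0.531 to 5.86 ± 0.162 FPKM. GCHFR, which encodes the feedback regulator of the GCH1 enzyme, fell from 8.90 ± 0.147 to 3.63 ± 0.579 FPKM. QDPR, which recycles the oxidised cofactor, fell from 25.7 ± 1.29 to 13.5 ± 1.81 FPKM. PTS, the middle enzyme of synthesis, was at 45.7 and 45.0 FPKM (adjusted p = 0.876). With FAC, 1 of 6 was lower, QDPR, by 0.34 log2 units (2 of 6 under quantile normalization).

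Coenzyme Q is the substrate shared by AIFM2 and DHODH. Of 12 genes of its synthesis and reduction, 2 were higher and 7 lower after BafA1 (median -0.14), but 3 and 3 with median-of-ratios scaling. NQO1, a quinone reductase, fell from 6.95 ± 0.790 to 2.90 ± 0.159 FPKM and COQ3, a methyltransferase of the pathway, from 33.1 ± 0.526 to 17.7 ± 0.384. With FAC, 3 of 12 were lower, with NQO1 at -0.59 and COQ3 at -0.37. The 2 enzymes that flank DHODH in pyrimidine synthesis, CAD and UMPS, were not called in either comparison, at 39.7 and 40.0 FPKM for CAD and 58.1 and 60.2 FPKM for UMPS in control and BafA1. With median-of-ratios scaling 1 of the 2 was called higher after BafA1.

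Around ACSL4 and LPCAT3, 3 of 11 tested genes of phospholipid remodelling were higher and 7 lower after BafA1 (median -0.29). ACSL3, which activates monounsaturated fatty acids and is linked to protection, fell from 64.9 ± 2.82 to 34.3 ± 2.11 FPKM, while ACSL4 was not called. MBOAT1, an acyltransferase for lysophospholipids, fell from 2.19 ± 0.269 to 0.707 ± 0.0862 FPKM (0.323 times control, and -0.90 in log2 of FPKM + 1). PLA2G6, a phospholipase that can remove oxidised chains, rose 2.30-fold to 13.6 ± 2.47 FPKM. LPCAT1, a relative of LPCAT3 that prefers saturated chains, rose in BafA1 (log2 0.54) and more so with FAC, from 34.3 ± 1.54 to 88.4 ± 2.96 FPKM (log2 1.34 ± 0.05, adjusted p = 4.16e-09). That difference had an interaction of 0.80 (adjusted p = 1.63e-06), whereas LPCAT3 was not called with FAC.

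Fatty acid desaturation and elongation had 3 of 7 genes higher and 4 lower after BafA1 (median -0.30). SCD, which makes monounsaturated fatty acids, fell from 219 ± 1.63 to 107 ± 4.36 FPKM. FAC and control libraries also differ in how entries were filled. With FAC alone, 4 of 7 were higher and 0 lower, against 4.72% and 4.84% of all tested genes. Of these 7, FADS1 and FADS2, which desaturate polyunsaturated fatty acids, rose 1.2-fold and 1.29-fold (adjusted p = 0.000595 and 0.0115). Any link to the rise of ACSL4 was not tested. The FADS2 call was lost without control replicate 2 or FAC replicate 2 (adjusted p = 0.0616 and 0.0639). In the ether lipid list, 1 of 4 was higher and 2 lower after BafA1. FAR1, which makes the fatty alcohols of ether lipids, rose from 56.3 ± 1.51 to 79.03 ± 2.83 FPKM.

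Of 10 enzymes linked to lipid peroxidation, 4 passed the minimum and 2 of these were higher and 2 lower after BafA1. The 6 lipoxygenase genes had group means of at most 0.26 FPKM and were not tested. SAT1, a polyamine acetyltransferase linked to lipoxygenase activity, rose 3.60-fold to 63.7 ± 2.41 FPKM. PEBP1, a scaffold protein that binds lipoxygenases, fell from 203 ± 3.53 to 121 ± 2.40 FPKM, and POR, an electron donor that can feed peroxidation, from 31.7 ± 1.89 to 22.2 ± 1.96.

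Among 10 regulators, 7 were higher and 3 lower after BafA1 (median 0.44). ATF4, which activates SLC7A11, rose from 499 ± 7.57 to 922 ± 34.8 FPKM. SREBF1, a regulator of lipid synthesis, rose from 25.1 ± 3.71 to 47.7 ± 6.67 FPKM. BACH1, which represses antioxidant genes, rose from 10.3 ± 0.556 to 21.06 ± 0.792 FPKM. With FAC, 1 of 10 was higher and 1 lower, and ATF4 was at 529 ± 14.0 and 560 ± 9.23 FPKM (adjusted p = 0.0898). In the iron pool list, 4 of 8 were higher and 4 lower without FAC (4 and 2 with either other scaling), and 4 and 2 with FAC. HMOX1, which degrades haem and frees its iron, fell from 21.2 ± 1.42 to 7.97 ± 0.14 FPKM after BafA1 alone and from 40.3 ± 3.81 to 11.1 ± 0.723 FPKM with FAC. TFRC, the transferrin receptor, was at 10.2 ± 1.29 FPKM in FAC and at 122 ± 3.03 in FAC+BafA1, an 11.95-fold difference. SLC7A11 was called lower between these 2 groups, as was DHODH, whose call depended on the setting. The 5 other members were not called there, and any link to TFRC was not tested.

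**Figure D4:**
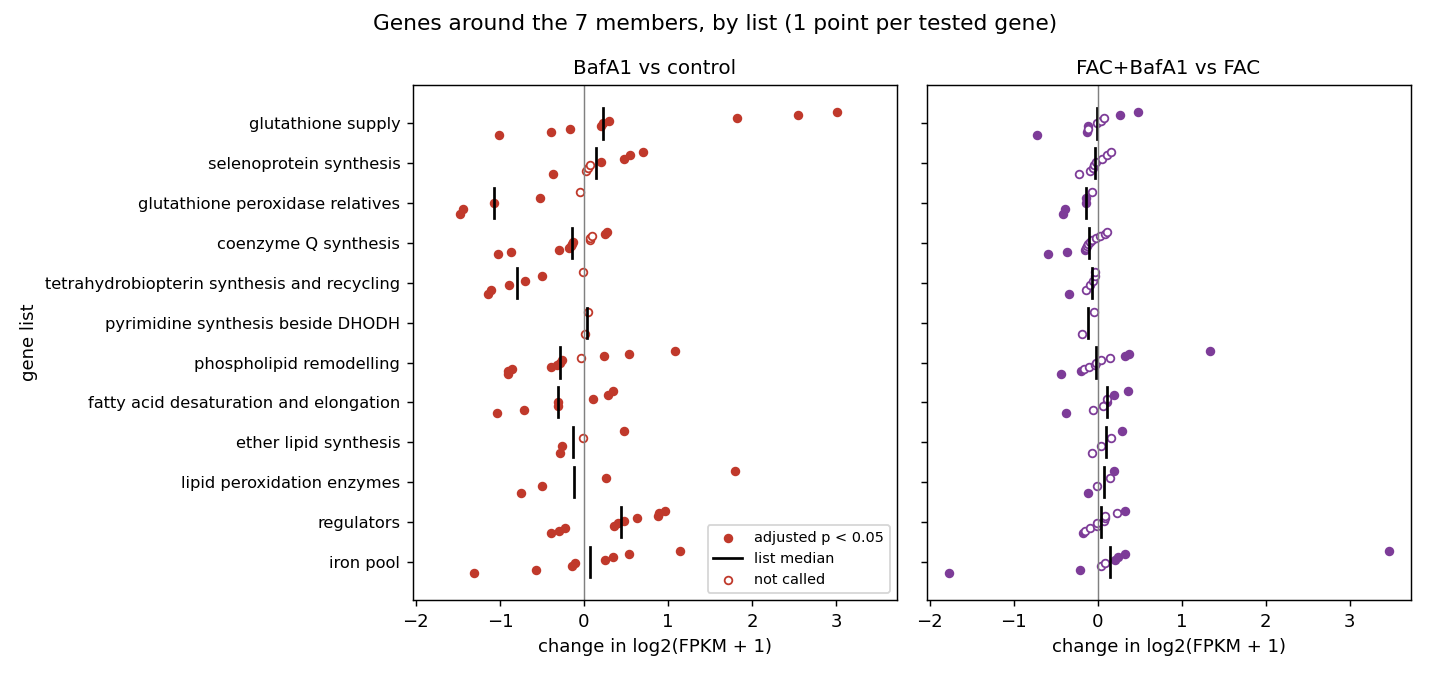
Change in log2(FPKM + 1) after BafA1 without FAC (left) and with FAC (right) for each tested gene of 12 lists, with the list median as a bar and filled points at an adjusted p under 0.05. The tetrahydrobiopterin list has a median of -0.80 without FAC and -0.07 with FAC.

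The 4 other comparisons of these lists are given by counts. With FAC alone, 9 of 86 genes (10.5%) were higher and 5 (5.81%) lower, beside 4.72% and 4.84% of all tested genes. FAC+BafA1 against BafA1 had 40 (46.5%) higher and 22 (25.6%) lower, beside 38.8% and 29.1%. Against control, 22 (25.6%) were higher and 16 (18.6%) lower, beside 16.2% and 16.6%. For the interaction, 36 (41.9%) were positive and 22 (25.6%) negative, beside 29.5% and 20.6%.

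Genes with the most similar pattern were sought among protein-coding genes averaging 5 FPKM or more, by the root mean square difference of log2 values centred on each gene's mean over the 12 libraries. For SLC7A11 they were SESN2, a stress-induced regulator of nutrient signalling, SLC6A9, a glycine transporter, and RAB39B, with differences of 0.132, 0.133 and 0.154. SESN2 was at 19.6, 86.3, 20.2 and 18.6 FPKM in control, BafA1, FAC and FAC+BafA1. For GPX4 they were CADM1, a cell adhesion molecule, GADD45GIP1, a mitochondrial ribosome protein, and NDUFAF1, an assembly factor of respiratory complex I (0.0424, 0.0538 and 0.055). For LPCAT3 they were TMEM126B, CCAR2 and DNAJC9 (0.0547, 0.0576 and 0.0607), and for DHODH SORD, ARL16 and ERLIN2 (0.101, 0.103 and 0.105). For ACSL4 they were RRAGC, LBR and XPR1 (0.0659, 0.0672 and 0.0678), for GCH1 PTTG1IP, MSI2 and PTPRA (0.0368, 0.0387 and 0.0421) and for AIFM2 ANXA4, DNASE2 and PIK3R2 (0.0883, 0.0964 and 0.104). These differences compare with a spread of the gene itself over the 12 libraries of 0.924 for SLC7A11, 0.268 for GPX4, 0.27 for DHODH, 0.225 for AIFM2, 0.156 for LPCAT3, 0.138 for ACSL4 and 0.0859 for GCH1.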

How the data were processed

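The authors deposited 1 table of FPKM for 12 libraries, per the file headers, with values to 2 decimals. The submitters' processing notes name STAR, RSEM and GRCh38; versions, annotation and strand setting were not given in the sources used here. Among 56340 rows, 3 repeated an ID at 0 and were dropped. Positions are from GENCODE 44 (GRCh38), and 56104 IDs had a reference name.

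Values were taken as log2(FPKM + 1). Genes averaging 1 FPKM or more were fitted with limma 3.58.1 in R 4.3.3, with 4 group means and an intensity trend, and p-values were adjusted by Benjamini-Hochberg over 13682 genes per comparison. The fit was also run on simulated data with independent noise and a small share of changed genes. Its outcome is not given here. It does not cover a comparison with as many calls as BafA1 against control, or a difference in filling. Depth was estimated from values under 0.5 FPKM of single-transcript genes 700 to 2000 bases long, assuming fragments of 150 bases, as the value that brought them nearest to whole fragments. Of these values, 52.4% to 55.0% in libraries without FAC and 63.5% to 67.1% in libraries with FAC then lay within 0.2 of a whole number. No counts were therefore recovered and no count model was run. The source of that split across FAC was not tested. The members and lists were chosen with earlier results of these data known. Genes named were taken from the up to 3 called genes per list and comparison with the largest log2 change, not all of which are printed; GSS, GSR, GPX8, LRP8, PTS, CAD, UMPS and further values of GCLM, LPCAT1 and ATF4 were added after their values were seen. The library numbers are not said to mark a shared culture or day, so no block was used in the main fit. Same-numbered libraries did not deviate together in every pair, which does not settle whether they were paired. Alternatives were another pseudocount (0.1), no minimum or a mean of 5 FPKM, other scalings, no trend, separate fits, a replicate block and omission of each library.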

Additional observations from a re-analysis of the deposited data

Results flagged for a closer look

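For 4 of the 7 genes the BafA1 change with FAC differed from that without FAC by the limma interaction test. The difference was -2.56 log2 units for SLC7A11, 0.57 for GPX4, 0.37 for LPCAT3 and 0.19 for GCH1, the last of which was lost under 12 of 19 alternatives. In 11 of the 12 pathway lists at least 1 gene had such a difference, and the one with the largest is given here. In the pyrimidine list neither CAD nor UMPS was called by limma (adjusted p = 0.125 and 0.231). The difference was negative for CTH (-2.74), SAT1 (-1.64), PLA2G6 (-0.94), ATF4 (-0.80) and SEPSECS (-0.77). It was positive for TFRC (2.32), GPX3 (1.09), GCHFR (1.08), SCD5 (0.78), COQ3 (0.50) and TMEM189 (0.41). Of all tested genes, 29.5% had a positive and 20.6% a negative interaction by the same test.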

How the results depend on the processing

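No value of the 7 genes changed direction to a call of the opposite sign. Across the alternatives, 767 values stayed on the same side of the threshold, 52 fell short of it and 8 newly passed it. The calls for AIFM2, DHODH and GCH1 depended on the setting, and the cause was not tested. After BafA1 without FAC, AIFM2 was at -0.28 with median-of-ratios scaling (adjusted p = 0.0729), -0.32 with no expression minimum (0.127) and -0.18 with quantile normalization (0.25). For FAC+BafA1 against BafA1 it was 0.29 (0.0655), 0.32 (0.0955) and 0.17 (0.267) under the same 3 settings, and DHODH was 0.24 (0.0563) and 0.29 (0.0554) under the first 2. For FAC+BafA1 against FAC, DHODH was -0.32 with these groups fitted alone (0.136), with no minimum (0.134) and without the trend (0.0627), and -0.35 with a pseudocount of 0.1 (0.0551), and the count of called genes was then 1. For FAC+BafA1 against control, 4 genes were called under quantile normalization, with SLC7A11 at -0.16 (0.0394) and DHODH at -0.30 (0.0397). GCH1 was 0.14 with no minimum (0.0485) and without the trend (0.0399). The GCH1 interaction was 0.13 with median-of-ratios scaling (0.167), 0.19 with no minimum (0.0645) and 0.19 with quantile normalization (0.0503).

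With a replicate block, DHODH in FAC+BafA1 against control was -0.26 (0.033) and the GCH1 interaction was 0.19 (0.0574). The labels number the libraries but do not pair them. Same-numbered libraries had correlations of -0.074 to 0.138 between their deviations from the group means, over 0.1 in 1 of 18 pairs, and 9 of 12 libraries correlated more with their own number than with the others.

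Leaving out each library in turn moved AIFM2 after BafA1 between -0.34 and -0.27 and, for FAC+BafA1 against BafA1, between 0.21 and 0.38. DHODH moved between 0.20 and 0.37 against BafA1, between -0.42 and -0.24 against FAC (1 to 2 genes called) and between -0.35 and -0.18 against control. GCH1 moved between 0.11 and 0.18 against control, and its interaction between 0.15 and 0.22. AIFM2 was not tested at a mean of at least 5 FPKM. The depth is known only as an estimate, so the counting error of low values such as those of AIFM2 could not be given.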
